A study of Mus musculus with 6 samples.

Results

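The 33 genes described here belong to the hypoxia-inducible factor (HIF) pathway: the factor subunits, the enzymes and adaptor that sense oxygen and remove the factor, and target genes outside glycolysis. They were taken by gene symbol from a table of 54532 genes, and the list was chosen from measured values, with the difference between cisplatin and PBS in these same libraries already known. The values of the 33 genes in that contrast are therefore a description: no p-value is given for any of them, and counts of those past a threshold stand for no test of the list. All 33 symbols were found in the table, and 32 of them passed the filter of at least 1 FPKM in at least 3 libraries, which 13441 genes passed in all. FPKM counts the fragments of a gene relative to its length and to the depth of the library, so levels of different genes can be set side by side.

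The libraries come from a co-culture of ID8 cells, a mouse ovarian cancer line, with bone marrow-derived macrophages (BMDMs), which addressed how tumour cells exposed to chemotherapy alter immune cells. The BMDMs were marrow monocytes of C57BL/6 mice 6 to 8 weeks old, kept in RPMI medium with serum, and the medium listed for them names no added growth factor. Before the co-culture, the ID8 cells of the cisplatin group received cisplatin at 40 µM, a DNA-crosslinking platinum drug, and those of the control group received PBS. Each group holds 3 libraries of poly-A RNA from the collected BMDMs, and no reduced oxygen was named for either group. How the BMDMs were separated from the ID8 cells is not given in the sources used here. The study's methods speak of biological replicates without saying whether the libraries of a group came from separate mice or separate cultures. The p-values measure the spread between these libraries, whatever its source.

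HIF is a pair of an alpha subunit (HIF-1α, encoded by Hif1a, or HIF-2α, encoded by Epas1) and the constant partner ARNT. In the presence of oxygen the EGLN prolyl hydroxylases mark the alpha subunit, the von Hippel-Lindau protein (VHL) binds the mark, and the subunit is degraded. A second enzyme, factor inhibiting HIF (Hif1an), blocks the binding of coactivators. When oxygen is scarce the alpha subunit persists and binds the core letters ACGTG or GCGTG near its targets, among them genes for mitochondrial turnover, pH balance and the hydroxylases themselves, which form a feedback loop. In macrophages HIF-1α is also raised by inflammatory signals in normal oxygen, through transcription of Hif1a and through the stability of the protein, which RNA does not show.

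The libraries held 15776238 to 17924686 reads assigned to genes, as recovered from the FPKM. Correlations across genes were 0.984 to 0.989 between libraries of the same group and 0.871 to 0.877 between groups, and no library stood apart from its group. Markers listed for ID8 and mesothelial cells were present as a group in every library, although Igfbp5, Krt7 and Tagln were at 0 in some. Their summed level over 20 genes was 1459 to 1567 FPKM with PBS and 292 to 309.7 FPKM with cisplatin. That over 18 macrophage markers was 2336 to 2385 FPKM with PBS and 5242 to 5445 FPKM with cisplatin. Over 10 granulocyte and progenitor markers it was larger in both groups, at 4805 to 4974 FPKM with PBS and 9099 to 9356 FPKM with cisplatin. Over 10 B and T cell markers it was 193 to 201 FPKM with PBS and 439 to 450 FPKM with cisplatin. Libraries of a co-culture are mixtures, and in such bulk RNA fewer cells of a type cannot be told apart from less RNA per cell. The part of these markers in the results was not tested.

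Of the 32 genes tested, 31 were lower with cisplatin and 1, Egln2, was higher, directions that turned for Hif1an and Wsb1 with quantile normalisation and for Egln2 when 4 Y-linked genes set the scale. That scaling divides each library by the summed FPKM of those 4 genes. It sets levels against their transcripts instead of all reads, and so is not an ordinary library normalisation. The median log2 fold change, cisplatin against PBS on the scale of log2(FPKM + 1), was -1.37, beside -0.0011 over all genes tested. This scale understates the change of genes near 1 FPKM. Calls required a fold change of 1 or more on the log2 scale, up or down, with limma's Benjamini-Hochberg adjusted p below 0.05 over all genes tested. By this rule 22 of the 32 were called lower, beside 11.3% of all genes tested. None of the 32 was called higher, beside 4.67% of all genes, by limma on FPKM or by limma voom on recovered reads, and 1 was higher at an unadjusted p under 0.05. The values of the 2 groups did not overlap for 29 genes that were lower, where 37.2% of all genes were lower without overlap, and for 1 gene that was higher, where the share over all genes was 35.2%. By role, those called lower were 4 of 9 factor and sensing genes, 5 of 5 mitochondrial, 3 of 5 stress and growth, 6 of 7 transcription and chromatin, and 3 of 5 acid-base, secretory and lipid genes, each beside the same 11.3%. Since this contrast chose the genes, nothing is read from these counts. Over all genes tested 628 were called higher and 1514 lower, a split that scaling by 4 Y-linked genes moved to 94 and 5107 and voom to 1227 and 1861.

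**Figure D1:**
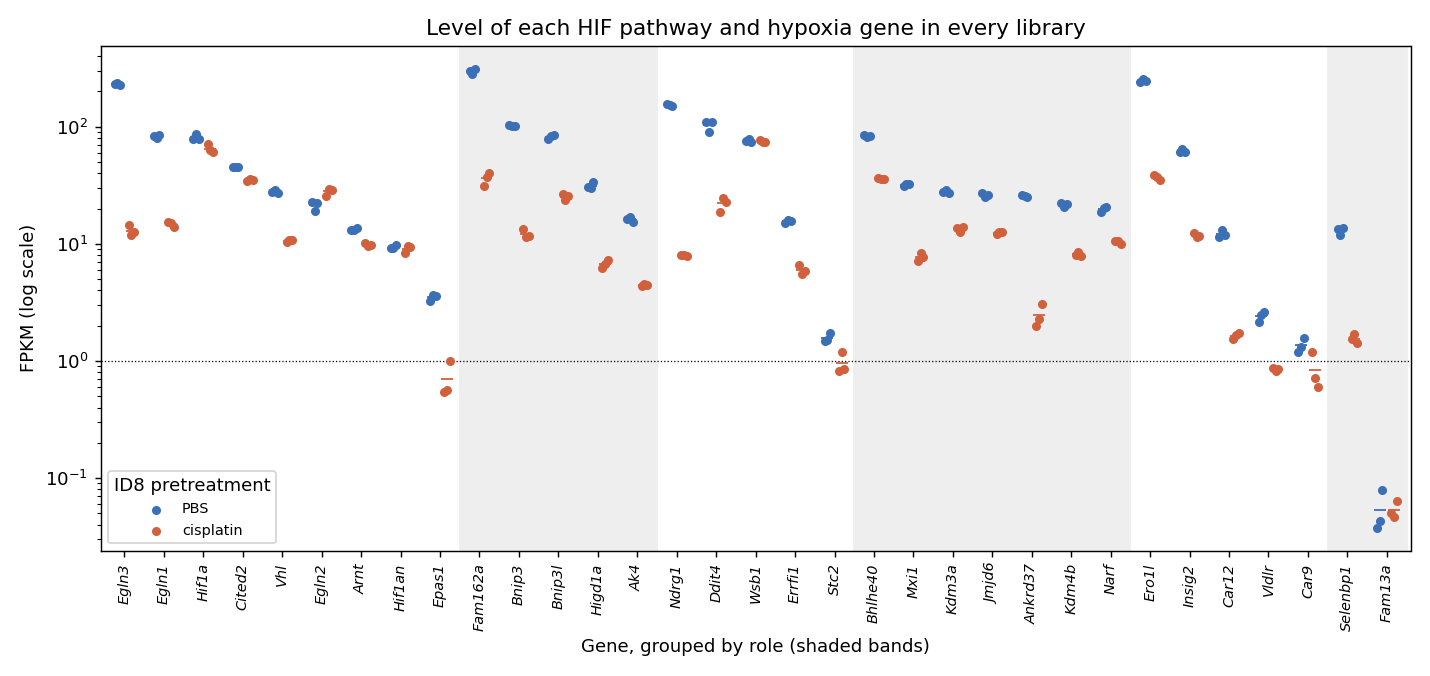
FPKM (log axis) of each of the 33 genes in each of the 6 libraries. Points are libraries, short lines are group means (n = 3), shaded bands part the roles (from the left: factor subunits and oxygen sensing, mitochondria, stress and growth signalling, transcription and chromatin, acid-base, secretory and lipid genes, other targets), and the dotted line is 1 FPKM. The cisplatin points lie below the PBS points for 29 genes tested and above them for Egln2.

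Summed over the 33 genes the level was 1964, 1959 and 1984 FPKM in the PBS libraries and 529.5, 528 and 527 FPKM in the cisplatin libraries. As a share of all recovered reads the 33 genes took 0.700% to 0.709% with PBS and 0.223% to 0.229% with cisplatin. By the ratio of the group means, 14 genes were at least 4-fold lower with cisplatin, 9 were 2-fold to 4-fold lower, and 10 were under 2-fold apart. Placed among all 13441 genes tested, 5 of the 33 lay within the lowest 100 fold changes and 13 within the lowest 500. Libraries of a group lay close together, with a median coefficient of variation over the 33 genes of 3.97% with PBS and 6.45% with cisplatin. Epas1 and Vldlr were under 1 FPKM in every cisplatin library. They passed the filter through the PBS libraries, and without them 21 of 30 genes were called lower. The exons or introns of 15 of the 33 genes overlap another annotated gene, and whether reads were counted by strand is not given in the sources used here.

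**Figure D2:**
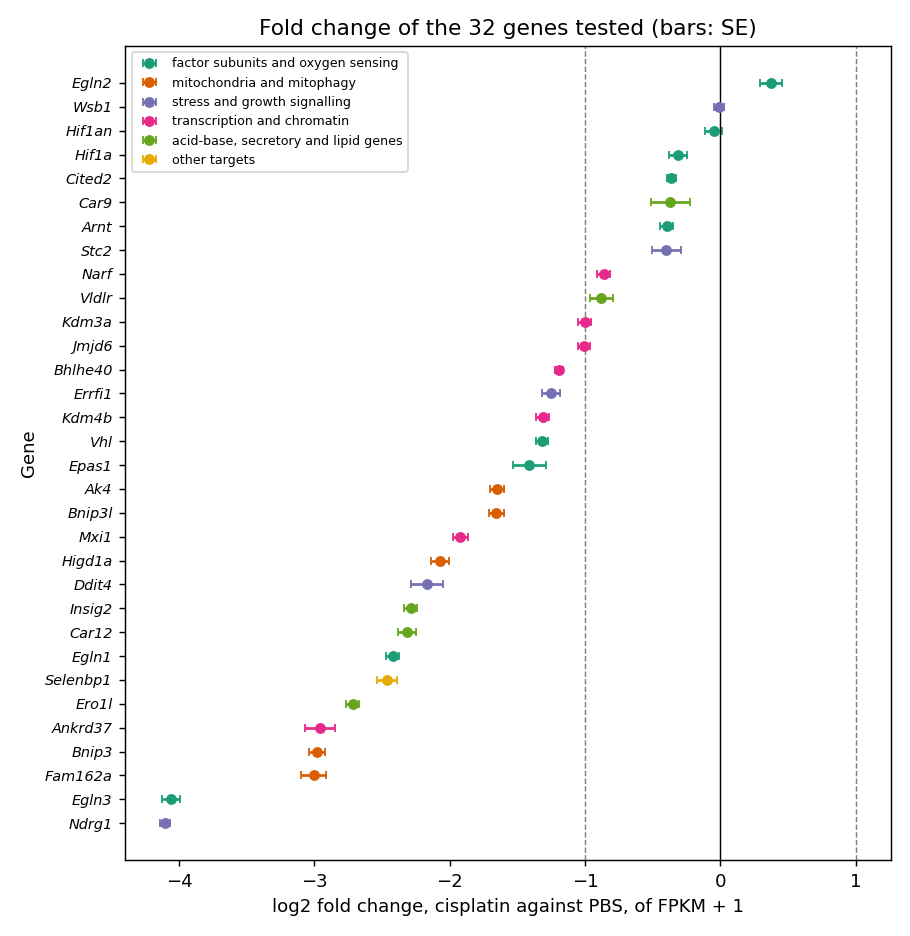
log2 fold change of FPKM + 1 (x axis, cisplatin against PBS) of the 32 genes tested, in order of size, coloured by role. Bars are the standard error from limma and dashed lines stand at a log2 fold change of 1 in either direction. Ndrg1 (-4.10) and Egln3 (-4.06) are the lowest and Egln2 (0.37, or -0.57 with scaling by the Y-linked genes) is the one gene above 0.

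The list was not chosen by promoter sequence, although known HIF targets make up most of it. RefSeq windows of GRCm38.p6, from 250 bases before to 50 after a start site, were found for 28 of the 33 genes, all but Epas1, Bnip3l, Ndrg1, Kdm4b and Bhlhe40. ACGTG, searched on both strands and also counted inside CACGTG, was found for 18 of the 28 genes (64.3%), beside 29.5% of 9455 tested genes with a window and 21.8% of 27025 genes in all. GCGTG, searched the same way, was found for 64.3% of the 28 genes, beside 55.6% of the tested genes. Counted by window instead of by gene, 46.3% of 41 windows held ACGTG, beside 19.6% of all 32851 windows of that length. A match is a description of the letters and not a site of binding. The windows below are shown for 4 genes with much lower means in the cisplatin group (Egln3, Egln1, Bnip3 and Ankrd37) and 2 whose level was higher or nearly equal (Egln2 and Wsb1), 5′ to 3′ on the strand of the gene, with each ACGTG of either strand in capitals; an unbroken CACGTG holds a match on each strand.
Egln3: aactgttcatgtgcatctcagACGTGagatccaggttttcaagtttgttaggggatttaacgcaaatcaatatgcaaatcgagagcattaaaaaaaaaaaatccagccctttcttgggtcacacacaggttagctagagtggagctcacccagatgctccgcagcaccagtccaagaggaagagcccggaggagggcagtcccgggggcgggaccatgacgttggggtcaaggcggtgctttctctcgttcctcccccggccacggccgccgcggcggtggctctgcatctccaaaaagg
Egln1: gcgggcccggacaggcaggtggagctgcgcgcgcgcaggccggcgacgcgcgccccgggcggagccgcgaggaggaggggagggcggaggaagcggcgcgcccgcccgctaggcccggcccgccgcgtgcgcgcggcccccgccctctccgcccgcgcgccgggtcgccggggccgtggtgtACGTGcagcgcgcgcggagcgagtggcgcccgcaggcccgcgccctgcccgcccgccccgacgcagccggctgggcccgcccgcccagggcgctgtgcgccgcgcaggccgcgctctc
Bnip3: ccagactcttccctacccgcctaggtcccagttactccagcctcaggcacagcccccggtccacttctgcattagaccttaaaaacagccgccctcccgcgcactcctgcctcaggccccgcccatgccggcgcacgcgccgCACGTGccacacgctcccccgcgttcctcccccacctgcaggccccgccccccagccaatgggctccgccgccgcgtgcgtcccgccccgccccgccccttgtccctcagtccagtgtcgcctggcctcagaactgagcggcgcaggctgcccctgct
Ankrd37: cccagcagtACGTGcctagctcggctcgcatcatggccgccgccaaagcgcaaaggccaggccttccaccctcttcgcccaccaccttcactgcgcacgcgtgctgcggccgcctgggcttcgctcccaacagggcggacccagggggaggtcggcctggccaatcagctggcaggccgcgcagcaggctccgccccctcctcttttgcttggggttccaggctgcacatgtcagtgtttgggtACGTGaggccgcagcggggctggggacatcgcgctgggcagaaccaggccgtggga
Egln2: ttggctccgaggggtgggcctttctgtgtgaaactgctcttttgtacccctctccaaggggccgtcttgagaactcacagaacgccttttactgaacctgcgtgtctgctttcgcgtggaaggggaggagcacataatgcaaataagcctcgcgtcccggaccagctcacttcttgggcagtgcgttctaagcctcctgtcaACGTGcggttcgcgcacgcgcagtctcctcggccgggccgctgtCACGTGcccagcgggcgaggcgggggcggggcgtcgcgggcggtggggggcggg
Wsb1: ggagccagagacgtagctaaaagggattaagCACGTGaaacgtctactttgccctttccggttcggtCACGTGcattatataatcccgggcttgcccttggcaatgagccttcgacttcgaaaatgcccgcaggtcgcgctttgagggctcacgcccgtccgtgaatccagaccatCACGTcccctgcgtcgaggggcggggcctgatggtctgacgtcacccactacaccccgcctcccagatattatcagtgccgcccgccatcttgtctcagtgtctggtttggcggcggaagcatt
These windows lie at chr12:54203825-54204124 (minus strand), chr8:124949205-124949504 (minus strand), chr7:138909457-138909756 (minus strand), chr8:45999801-46000100 (minus strand), chr7:27166753-27167052 (minus strand) and chr11:79254646-79254945 (minus strand). For Egln2 and Wsb1, which have 2 windows each, the one with more matches is shown. The match begins 229 bases before the start site in Egln3 and 68 bases before it in Egln1. In Bnip3 the matches on both strands begin 108 and 107 bases before the start, and in Ankrd37 they begin 241 and 6 bases before it. With the strands of a palindrome taken as 1 place, Wsb1 held these letters in 3 places, Egln2 and Ankrd37 in 2 each, and the other 3 genes shown in 1 each. Egln2 and Wsb1 do not stand for all genes that were not called: ACGTG was in a window of 5 of 10 such genes, with none in Hif1an, Arnt, Narf, Stc2 and Vldlr. Nor do the 4 lower genes shown stand for all called genes. ACGTG was in a window of 13 of 17 of these, with none in Vhl, Car12, Kdm3a and Insig2, a description with no test.

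Of the role groups, the factor and its oxygen sensors had the widest range of log2 fold changes, from -4.06 to 0.37. Egln3, an EGLN prolyl hydroxylase that is itself a well known HIF target (chr12:54178981-54203860, mm10, minus strand), was measured at 230.0, 235 and 228 FPKM in the PBS libraries and 14.4, 11.9 and 12.5 FPKM in the cisplatin libraries. Every cisplatin library was far below every PBS library, with a ratio of the PBS mean to the cisplatin mean of 17.8 (log2 fold change -4.06 ± 0.068, where ± is the SE for this and later log2 fold changes). Only 12 of the 13441 genes tested had a lower fold change than Egln3.

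Egln1, the main oxygen sensor of most cells (chr8:124908587-124949324), was measured at 83.9, 80.5 and 84.9 FPKM in the PBS libraries and 15.3, 14.98 and 13.8 FPKM in the cisplatin libraries. The groups did not overlap and the mean was 5.65-fold lower with cisplatin (log2 fold change -2.42 ± 0.048). Egln2, the member of the family that is not a typical HIF target (chr7:27158658-27166802), was measured at 22.9, 19.1 and 22.4 FPKM in the PBS libraries and 25.6, 29.6 and 29.0 FPKM in the cisplatin libraries. Each cisplatin library was above each PBS library, 1.31-fold by the means, with a log2 fold change of 0.37 ± 0.084 that scaling by the Y-linked genes turned to -0.57, where the median of all genes moved to -0.82.

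The make-up of the prolyl hydroxylase transcripts lay apart between the groups. Their summed level was 335 ± 1.25 FPKM with PBS and 55.7 ± 0.636 FPKM with cisplatin (mean ± SD, n = 3). Egln3 held 68.8% ± 1.22 of that sum with PBS and 23.2% ± 2.57 with cisplatin. The share of Egln2 was 6.40% ± 0.602 with PBS and 50.4% ± 3.57 with cisplatin. The share of Egln1 was 24.8% ± 0.650 and 26.4% ± 1.36, so that Egln3 led the family in the PBS libraries and Egln2 in the cisplatin libraries. Shares within a library do not depend on how libraries are scaled to each other.

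**Figure D3:**
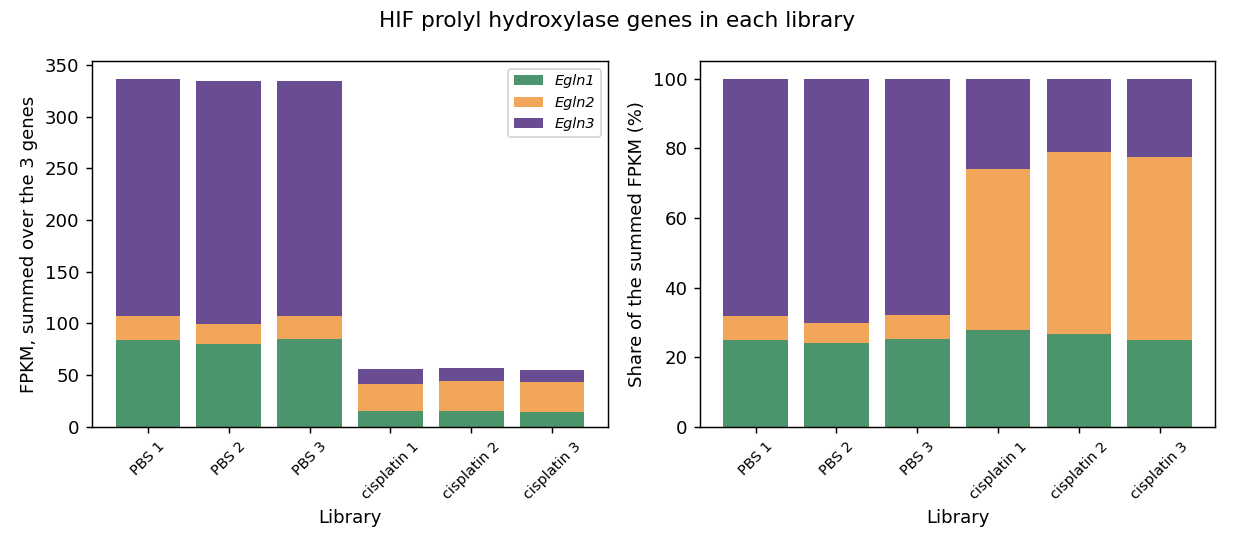
Egln1, Egln2 and Egln3 in each of the 6 libraries, as stacked FPKM (left) and as the share of their summed FPKM in percent (right). The summed level is 335 FPKM on average with PBS and 55.7 FPKM with cisplatin, and the share of Egln2 is 5.71% to 6.79% with PBS and 46.3% to 52.5% with cisplatin.

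The factor subunits differed in how far apart the groups lay. Hif1a, the alpha subunit that is most widely expressed (chr12:73901375-73947530), was measured at 79.0, 85.9 and 78.2 FPKM in the PBS libraries and 71.1, 63.0 and 61.3 FPKM in the cisplatin libraries. The groups lay apart by a ratio of 1.24, and the log2 fold change was -0.31 ± 0.066, or -1.28 and called with scaling by the Y-linked genes, which moved the median of all genes to -0.82. Epas1, the second alpha subunit, was measured at 3.22, 3.68 and 3.58 FPKM in the PBS libraries and 0.543, 0.562 and 0.992 FPKM in the cisplatin libraries, on 295 to 304 reads with PBS and 49 to 87 with cisplatin. Each cisplatin library was below each PBS library (log2 fold change -1.41 ± 0.12, or -2.21 with a pseudocount of 0.1). Its share of the summed alpha subunits was 4.13% ± 0.232 with PBS and 1.08% ± 0.450 with cisplatin, with Hif1a as the rest in both groups. Arnt, the constant partner, was at 13.3 ± 0.407 FPKM with PBS and 9.87 ± 0.323 FPKM with cisplatin (mean ± SD, n = 3), a log2 fold change of -0.40 ± 0.045, or -1.30 with that scaling.

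Among the other regulators, Vhl, which recognises the hydroxylated subunit for degradation, was measured at 27.6, 29.1 and 27.1 FPKM in the PBS libraries and 10.3, 10.7 and 10.7 FPKM in the cisplatin libraries. The PBS libraries were all above the cisplatin libraries, with a ratio of 2.64 (log2 fold change -1.32 ± 0.043). Hif1an, the asparaginyl hydroxylase that blocks coactivator binding, was measured at 9.21, 9.24 and 9.84 FPKM in the PBS libraries and 8.33, 9.57 and 9.40 FPKM in the cisplatin libraries. Its groups overlapped, and its log2 fold change of -0.048 ± 0.062 turned to 0.061 with quantile normalisation and to 0.0081 without cisplatin library 1. Cited2, a HIF target that competes with HIF for the coactivators, was at 45.2 ± 0.153 FPKM with PBS and 35.0 ± 0.868 FPKM with cisplatin (mean ± SD, n = 3), a log2 fold change of -0.36 ± 0.033, or -1.32 with scaling by the Y-linked genes.

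The log2 fold changes of the 5 genes of the mitochondrial group ran from -3.005 to -1.65. Bnip3, a receptor on the outer mitochondrial membrane that recruits the autophagy machinery (chr7:138890836-138909519), was measured at 104, 102 and 101 FPKM in the PBS libraries and 13.3, 11.4 and 11.7 FPKM in the cisplatin libraries. The groups were far apart, with a ratio of 8.44 (log2 fold change -2.98 ± 0.059). Bnip3l, its relative known for clearing mitochondria from maturing red cells (chr14:66985239-67008877), was measured at 78.4, 83.0 and 84.2 FPKM in the PBS libraries and 26.8, 23.6 and 25.6 FPKM in the cisplatin libraries. It was 3.23-fold lower with cisplatin (log2 fold change -1.66 ± 0.055), and the difference from Bnip3 was not tested. Bnip3 held 55.5% ± 1.20 of the summed FPKM of this pair with PBS and 32.3% ± 0.988 with cisplatin.

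Fam162a, a mitochondrial protein first described as a HIF-responsive death factor (chr16:36043761-36071594), had the highest level of the 33 genes in the PBS libraries and was measured at 297, 280.0 and 312 FPKM in the PBS libraries and 31.1, 37.3 and 40.2 FPKM in the cisplatin libraries. Its ratio was 8.18 (log2 fold change -3.005 ± 0.093). Higd1a, a small protein of the inner membrane that binds the respiratory chain, was at 31.4 ± 2.22 FPKM with PBS and 6.71 ± 0.502 FPKM with cisplatin (mean ± SD, n = 3), a ratio of 4.68. Ak4, an adenylate kinase of the mitochondrial matrix, was at 16.2 ± 0.830 FPKM with PBS and 4.46 ± 0.106 FPKM with cisplatin (mean ± SD, n = 3), a ratio of 3.63. No library of one group reached the other in any of the 5.

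The 5 genes of the stress and growth signalling group ran from -4.10 to -0.012 on the log2 scale. Ndrg1, a cytoplasmic protein induced by hypoxia and iron depletion (chr15:66929318-66969640), was measured at 157, 155 and 149 FPKM in the PBS libraries and 8.10, 8.05 and 7.84 FPKM in the cisplatin libraries. This was the largest difference of the 33 genes, with a ratio of 19.2 and a log2 fold change of -4.10 ± 0.036, and 10 genes of all those tested lay lower. Ddit4, also called REDD1, an inhibitor of mTORC1 (chr10:59949669-59951834), was measured at 109, 89.5 and 110.3 FPKM in the PBS libraries and 18.8, 24.7 and 22.9 FPKM in the cisplatin libraries. The groups did not overlap, although within the PBS group library 2 was below the others, and the ratio was 4.65 (log2 fold change -2.17 ± 0.12). Errfi1, a feedback inhibitor of the EGF receptor, was at 15.7 ± 0.542 FPKM with PBS and 6.002 ± 0.546 FPKM with cisplatin (mean ± SD, n = 3), a ratio of 2.61.

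The other genes of this group were Wsb1 and Stc2. Wsb1, a substrate adaptor of an E3 ubiquitin ligase that has been linked to VHL (chr11:79239372-79254671), was measured at 75.5, 79.1 and 73.9 FPKM in the PBS libraries and 77.0, 74.8 and 74.8 FPKM in the cisplatin libraries. The groups overlapped, and the log2 fold change of -0.012 ± 0.037 was 0.0014 with median-of-ratios scaling, 0.050 with quantile normalisation, 0.076 with voom and 0.016 without PBS library 2. Stc2, a secreted glycoprotein, was near the filter at 1.57 ± 0.142 FPKM with PBS and 0.954 ± 0.204 FPKM with cisplatin (mean ± SD, n = 3), lower without overlap by a ratio of 1.65. Its log2 fold change of -0.40 ± 0.11 was -0.68 with a pseudocount of 0.1 and -0.64 with voom.

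The 7 genes of the transcription and chromatin group ran from -2.96 to -0.86 on the log2 scale. Ankrd37, an ankyrin repeat protein and direct HIF target (chr8:45996902-46005707), was measured at 26.1, 25.4 and 25.3 FPKM in the PBS libraries and 1.99, 2.30 and 3.07 FPKM in the cisplatin libraries. Its ratio was 10.4 (log2 fold change -2.96 ± 0.11), on 603 to 711 reads with PBS and 52 to 78 with cisplatin. The gene overlaps Ufsp2 and Lrp2bp, so reads of these genes may be mixed where counting ignored strand. Mxi1, an antagonist of MYC, was at 32.1 ± 0.571 FPKM with PBS and 7.76 ± 0.578 FPKM with cisplatin (mean ± SD, n = 3), a ratio of 4.14. Bhlhe40, a repressor of the basic helix-loop-helix family that acts in the circadian clock and in macrophage activation, was at 83.4 ± 1.14 FPKM with PBS and 35.9 ± 0.411 FPKM with cisplatin (mean ± SD, n = 3), a ratio of 2.32.

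The histone demethylases and related oxygenases of the set use the same oxygen-dependent chemistry as the EGLN enzymes. Kdm4b, which removes methyl groups from histone H3 lysine 9, was at 21.7 ± 0.868 FPKM with PBS and 8.15 ± 0.330 FPKM with cisplatin (mean ± SD, n = 3), a ratio of 2.67 (log2 fold change -1.31 ± 0.049). Kdm3a, which acts on the same residue, was at 27.9 ± 0.925 FPKM with PBS and 13.4 ± 0.660 FPKM with cisplatin (mean ± SD, n = 3), and Jmjd6, a lysyl hydroxylase, was at 26.1 ± 1.04 FPKM with PBS and 12.5 ± 0.347 FPKM with cisplatin (mean ± SD, n = 3). Kdm3a (log2 fold change -1.002 ± 0.049) and Jmjd6 (-1.01 ± 0.045) stand at the threshold of 1 and were not called with median-of-ratios scaling, quantile normalisation or voom. Leaving out PBS library 2 or cisplatin library 2 brought Kdm3a to -0.98 or -0.96, and leaving out library 1 of either group brought Jmjd6 to -0.98 or -0.99, short of the threshold. Jmjd6 also overlaps Mettl23. Narf, a nuclear protein that binds prelamin A, was at 19.8 ± 0.977 FPKM with PBS and 10.4 ± 0.366 FPKM with cisplatin (mean ± SD, n = 3), a log2 fold change of -0.86 ± 0.051, just short of the threshold, which it passed at -1.78 with scaling by the Y-linked genes.

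The 5 genes of the acid-base, secretory and lipid group ran from -2.71 to -0.37 on the log2 scale. Ero1l, the oxidase that regenerates disulphide isomerase in the endoplasmic reticulum (chr14:45283087-45318771), was measured at 239, 257 and 247 FPKM in the PBS libraries and 38.6, 37.1 and 34.9 FPKM in the cisplatin libraries. It was the second most abundant of the 33 genes with PBS and was 6.71-fold lower with cisplatin (log2 fold change -2.71 ± 0.048). Insig2, which retains the SREBP complex in the endoplasmic reticulum and so limits sterol synthesis, was at 62.0 ± 2.66 FPKM with PBS and 11.9 ± 0.483 FPKM with cisplatin (mean ± SD, n = 3), a ratio of 5.205. Vldlr, a lipoprotein receptor, was at 2.41 ± 0.221 FPKM with PBS and 0.851 ± 0.0238 FPKM with cisplatin (mean ± SD, n = 3). Its ratio of 2.83 shrank to a log2 fold change of -0.88 ± 0.086 with the pseudocount of 1 and became -1.40 with a pseudocount of 0.1, past the threshold, as it also was with TPM, voom and scaling by the Y-linked genes.

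The carbonic anhydrases, membrane enzymes that hydrate carbon dioxide outside the cell and shift pH, were represented by Car12 and Car9. Car12 was measured at 11.5, 13.1 and 12.0 FPKM in the PBS libraries and 1.53, 1.67 and 1.73 FPKM in the cisplatin libraries. Every cisplatin library was below every PBS library, with a ratio of 7.41 (log2 fold change -2.32 ± 0.066). Car9, a classical marker of hypoxia in tumours, was measured at 1.20, 1.31 and 1.57 FPKM in the PBS libraries and 1.20, 0.714 and 0.604 FPKM in the cisplatin libraries, on 47 to 56 reads with PBS and 23 to 47 with cisplatin. PBS library 1 and cisplatin library 1 were nearly equal, and the log2 fold change of -0.37 ± 0.15 was -0.68 with a pseudocount of 0.1. The difference between these 2 fold changes was not tested.

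Of the remaining targets, Selenbp1, a selenium-binding methanethiol oxidase, was at 13.1 ± 0.948 FPKM with PBS and 1.55 ± 0.138 FPKM with cisplatin (mean ± SD, n = 3), a ratio of 8.42 (log2 fold change -2.46 ± 0.073). It has a close paralogue, Selenbp2, with which it may share reads. Fam13a was at 0.053 FPKM in the mean of both groups, on 7 to 13 reads with PBS and 8 to 11 with cisplatin, and was not tested.

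Other genes of the pathway were grouped by role, in lists drawn up with earlier results of these data known. Of 15 further machinery genes (the elongin and cullin partners of VHL, coactivators, SIAH ligases and others) 12 were tested. By limma none was called, none by voom, and 8 had an unadjusted p under 0.05, as many as had an adjusted p under 0.05 without the fold threshold. Over all 13441 genes tested 11.3% were called lower and 4.67% higher, and 4721 were lower and 4424 higher by the adjusted p alone, a share like that of the machinery genes. Their median log2 fold change was -0.012 and their range -0.33 to 0.59, with Crebbp, a coactivator of HIF, at 0.59. Hif3a, another alpha subunit, was not tested, at 0.585 and 0.0985 FPKM in the PBS and cisplatin means.

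Of 40 further HIF targets, glycolytic and other, 38 were tested, 28 were called lower and 2 higher, beside 11.3% and 4.67% of all genes tested, and their median was -1.49 on the log2 scale. The share called higher is near that of all genes. Among those that fell was Nos2, the inducible nitric oxide synthase of activated macrophages. Nos2 had means of 128 and 2.76 FPKM with PBS and cisplatin (log2 fold change -5.11 ± 0.079, limma with Benjamini-Hochberg adjusted p = 5.39e-08). The genes that rose were Cxcr4, a chemokine receptor (log2 fold change 1.32 ± 0.053, limma with Benjamini-Hochberg adjusted p = 1.32e-06), and Hmox1, haem oxygenase 1 (1.12 ± 0.031, adjusted p = 2.68e-07). Neither passed the threshold when the libraries were scaled by the Y-linked genes.

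The process in which Bnip3 and Bnip3l act was represented by 20 autophagy and mitophagy genes, of which 19 were tested, 1 was called lower and 1 higher, with a median log2 fold change of -0.24. Over all genes tested 11.3% were called lower and 4.67% higher. Calcoco1, a receptor for autophagy of the endoplasmic reticulum, fell by 1.04 on the log2 scale (limma with Benjamini-Hochberg adjusted p = 3.79e-06). Sqstm1, the autophagy receptor p62, rose by 1.02 (limma with Benjamini-Hochberg adjusted p = 1.79e-06). Both stand near the threshold of 1, and with quantile normalisation neither was called. Without PBS library 2 Sqstm1 was at 0.99, and 1 gene of the list was called.

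Among 21 other oxygenases that use 2-oxoglutarate, 20 were tested, 2 were called lower and none higher, and the median of the list was 0.027 on the log2 scale. The share called lower is near the 11.3% of all genes tested. The called genes were Alkbh5, an RNA demethylase (log2 fold change -1.27 ± 0.037, limma with Benjamini-Hochberg adjusted p = 3.44e-07), and Kdm5b, a demethylase of histone H3 lysine 4 (-1.22 ± 0.048, adjusted p = 1.15e-06). The lowest fold changes of the 33 genes, in Egln3 and Ndrg1, lie outside the ranges of the machinery, autophagy and oxygenase lists, and Nos2 lies below them.

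**Figure D4:**
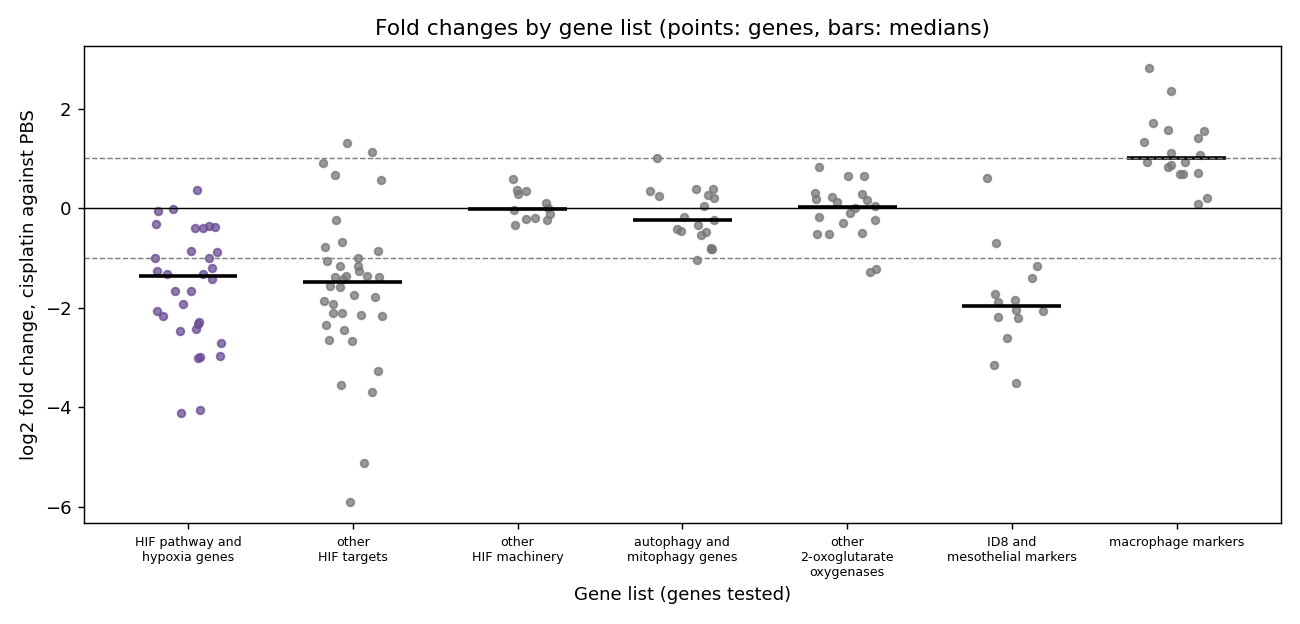
log2 fold change (y axis, cisplatin against PBS) of the genes tested in 7 lists: the 33 genes described, other HIF targets, other HIF machinery, autophagy and mitophagy genes, other 2-oxoglutarate oxygenases, ID8 and mesothelial markers, and macrophage markers. Points are genes, bars are list medians, and dashed lines stand at 1 in either direction. The medians are -1.37 for the 33 genes, -1.49 for other targets and -0.012 for the machinery, beside -1.97 for the ID8 markers and 1.002 for the macrophage markers.

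The median of the ID8 and mesothelial markers was lower with cisplatin, like that of the 33 genes. The medians of the other marker lists were higher. Of 20 ID8 and mesothelial markers 14 were tested and 12 were called lower, beside 11.3% of all genes tested, with a median of -1.97. Among them were Krt19, with means of 588 and 51.1 FPKM and a ratio of 11.5, the largest of the tested ID8 markers, Krt8 (log2 fold change -2.60) and Krt18 (-2.07), all keratins. Msln, mesothelin, was not called at -0.70, and Krt7 was under 1 FPKM in every library. Cdh1, E-cadherin, was at means of 3.24 and 5.41 FPKM with PBS and cisplatin, higher without overlap (log2 fold change 0.60 ± 0.11), short of the fold threshold. It was picked for its direction, so no p-value is given for it. The untested Tagln, under 1 FPKM in every library, was also higher without overlap. The ratios of Ndrg1 (19.2) and Egln3 (17.8) were larger than that of Krt19, while those of the other 31 genes were smaller. Krt19 is the upper end of its list. The other tested ID8 markers that were lower with cisplatin had ratios from 11.1 (Wt1) to 1.64 (Msln), and many of the 33 genes lie within that range. No marker of this list was at 0 in all libraries, and 5 of the 20 were under 1 FPKM in all of them.

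All 18 macrophage markers were tested, 9 were called higher and none lower, beside 4.67% and 11.3% of all genes tested, with a median of 1.002. Lyz2, lysozyme, was among those called (log2 fold change 1.57). Adgre1, which encodes F4/80, was at 0.87, Csf1r at 0.92 and Ptprc at 0.72, and with scaling by the Y-linked genes these values were -0.097, -0.037 and -0.23. Granulocyte and progenitor markers were called higher for 8 of 10 genes (median 1.84), and of 10 B and T cell markers 6 were tested and 4, all of B cells, were called higher, both beside the same 4.67%. Of 4 genes on the Y chromosome, Uty (log2 fold change 0.55), Kdm5d (0.73) and Eif2s3y (0.68) were higher without being called, and Ddx3y (1.15) was called higher. Their summed level was 19.5 to 22.7 FPKM with PBS and 41.6 to 42.8 FPKM with cisplatin. The part of these shifts in the values of the 33 genes was not tested.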

How the data were processed

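The 6 libraries (3 with cisplatin-pretreated ID8 cells, 3 with PBS-pretreated ones) are in 1 gene table of deposited FPKM values, which the authors computed from their read counts. The submitters' processing notes name fastp, HISAT2 2.0.5, featureCounts 1.5.0-p3 and the mm10 build, whereas the study's methods name LifeScope for alignment and counting and DESeq2 for testing. Whether counting used strand is not given in the sources used here. Dividing the FPKM by the smallest step of each library gave whole reads for 100% of values under 200 reads (tolerance 0.05), and so the depth, which ranged from 15776238 to 17924686 reads.

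Genes with at least 1 FPKM in at least 3 libraries were tested with limma 3.58.1 (R 4.3.3; lmFit, and eBayes with a trend) on log2(FPKM + 1), with Benjamini-Hochberg adjustment over 13441 genes. Calls required an adjusted p below 0.05 with a fold change of 1 or more on the log2 scale. DESeq2 was not run, since FPKM were deposited; the recovered reads were fitted with limma voom as an alternative. Deviations of same-numbered libraries from their group means correlated at -0.10, -0.086 and -0.024. These values show no sign of pairing by replicate number, but with 3 libraries a group they cannot exclude it.

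The 33 genes, the other lists and the markers were chosen with earlier results of these data known. All 33 genes are named; from each other pathway list, the 2 called genes with the largest rise and the 2 with the largest fall; and the keratins, Msln, Adgre1, Csf1r, Lyz2, Ptprc and the Y-linked genes. 1 gene that this rule names is not reported here. Hif3a, Crebbp, Cdh1 and Tagln were named after their values were seen. For each gene shown, the promoter window with the most ACGTG was printed. Alternatives covered the pseudocount, filters, scalings, quantile normalisation, the variance trend, voom, the replicate block, each library left out and the adjusted p alone.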

Additional observations from a re-analysis of the deposited data

How the results depend on the processing

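Across 16 alternatives, 482 of 508 fold changes of the 33 genes kept their direction and their side of the threshold, 10 lost the call, 8 gained it and 8 reversed. The 10 losses were in Kdm3a and Jmjd6, and the 8 gains were in Vldlr and, with scaling by the Y-linked genes, in Hif1a, Arnt, Narf and Cited2 as well. The number called lower stayed between 20 and 28, and the number called higher was 0, or 1 with the adjusted p alone. Their median log2 fold change of -1.37 became -1.55 with a pseudocount of 0.1, -1.32 with no filter, -1.65 with a filter at 5 FPKM, -1.54 as TPM, -1.24 with quantile normalisation, -1.503 with voom and -2.23 with scaling by the 4 Y-linked genes, and ranged from -1.43 to -1.33 with single libraries left out. The Y-linked scaling moved the median of all genes to -0.82 and quantile normalisation moved it to 0.10. All genes called higher numbered 973 with a pseudocount of 0.1 and 1227 with voom, against 628. The Y-linked scaling gave 94 higher and 5107 lower, 3 machinery, 11 autophagy and 7 oxygenase genes, and the adjusted p alone gave 4424 higher and 4721 lower, 8 machinery, 17 autophagy and 16 oxygenase genes. Autophagy calls were 0 with quantile normalisation and 1 to 2 with single libraries left out; the lower count came without PBS replicate 2, where Sqstm1 was at 0.99. Reversals were Hif1an (0.061 with quantile normalisation, 0.034 with voom, 0.0081 without cisplatin replicate 1, and -0.082 to 0.0081 with single libraries left out), Wsb1 (0.0014 with median-of-ratios scaling, 0.050 with quantile normalisation, 0.076 with voom, 0.016 without PBS replicate 2, and -0.033 to 0.016 with single libraries left out) and, with the Y-linked scaling, Egln2 (-0.57), Adgre1 (-0.097), Csf1r (-0.037), Ptprc (-0.23), Eif2s3y (-0.23) and Uty (-0.10). The cause was not tested. The replicate block called the same number of the 33 genes, 22 lower, and 625 higher and 1515 lower over all genes. It changed no call among the 33, and whether replicate numbers pair the libraries cannot be told from these values. A pseudocount of 0.1 moved 4 genes near 1 FPKM by over 1.5 times: Epas1 to -2.21, Stc2 to -0.68, Car9 to -0.68 and Vldlr to -1.40. Of the 32 tested, Car9 had the fewest reads, 23 to 56 a library.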
